A study of Caenorhabditis elegans with 22 samples.

Results

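The 7 genes described here, dpy-4, dpy-5, dpy-13, col-17, col-73, col-90 and col-125, encode collagens of the cuticle of Caenorhabditis elegans. They were chosen by their measured level at day 20, which was higher with rotenone than with DMSO, and for being collagens. The count table holds 45461 genes, and genes of other kinds, such as fat-5 and fat-6, were also higher at day 20. Because the day 20 values chose the 7, that difference is given below as a description and is not tested. All 7 passed the filter on low counts, which left 16822 genes for testing.

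Messenger RNA of whole adult animals was sequenced in 22 libraries. Treated animals were exposed to rotenone, an inhibitor of respiratory complex I, at 100 nM, and controls to the solvent DMSO. They were collected at 1, 5, 10 or 20 days past L4, which is the final larval stage. The 8 groups hold 3 libraries each, except that both day 20 groups hold 2. The strain, and whether replicates came from separate cultures, are not given in the sources used here, so the p-values speak of the spread among these libraries, which may be technical.

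The nematode cuticle is a layered coat of cross-linked collagens that the epidermis secretes and replaces at each larval moult. Collagen genes are switched on in waves during the moulting cycle, in which the collagens of the annular furrows come before others such as dpy-5 and dpy-13, and moulting ends with the last larval stage. Mutants of dpy-4, dpy-5 and dpy-13 are short and stout, the dumpy phenotype that named them. The col genes were numbered as members of the same large family, most of them with no individual role known.

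Levels are given as CPM, the reads of a gene relative to the total of its library, scaled between libraries by the TMM method of edgeR. A gene passed where the quasi-likelihood test of edgeR gave an adjusted p under 0.05 over all 16822 genes. Total counts ran from 25769159 to 69961601 reads per library. DMSO day 10 replicate 1 stood apart from its group on the third principal component, at -77.3 against -10.8 and -16.2 for replicates 2 and 3. The tests of the 7 that compare this library's group are given without it as well. Counts in the gene lists are given only with it. RNA came from whole animals, so fewer cells of a type and less RNA per cell cannot be told apart. Epidermal marker genes were detected in every group, with a summed level of 220 to 236 CPM in DMSO and 228 to 241 CPM in rotenone at day 20, and none of the 6 was at 0.

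By mean level per kilobase of exon, the 3 dumpy genes were the most abundant of the 7 in each of the 8 groups. At day 1 dpy-4 was at 30.1, 30.4 and 33.0 CPM in the 3 DMSO libraries and at 39.8, 48.5 and 52.0 CPM in the 3 rotenone libraries. At day 5 it was at 17.9, 21.0 and 14.7 CPM in DMSO and at 33.2, 18.6 and 15.9 CPM in rotenone. The rotenone libraries were all above the DMSO libraries at day 1, and the groups overlapped at day 5, where rotenone replicate 1 was the highest of the 6. At day 10 dpy-4 had dropped to 0.626, 0.552 and 0.208 CPM in DMSO and 0.551, 0.206 and 0.527 CPM in rotenone, which rest on 10 to 36 reads per library. At day 20 it was at 0.722 and 0.345 CPM in DMSO, close to the levels of day 10, and at 4.21 and 3.18 CPM in rotenone. Both rotenone libraries of day 20 lay above the DMSO libraries of day 20 and every library of day 10, and below every library of days 1 and 5.

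dpy-5 stood at 31.6, 28.7 and 30.0 CPM in DMSO and 41.0, 46.2 and 50.3 CPM in rotenone at day 1. Its levels at day 5 were 16.0, 21.1 and 12.9 CPM in DMSO and 32.2, 20.5 and 14.6 CPM in rotenone. As for dpy-4, the treatments did not overlap at day 1 and overlapped at days 5 and 10. Day 10 gave 0.560, 0.431 and 0.228 CPM in DMSO and 0.356, 0.206 and 0.644 CPM in rotenone, and day 20 gave 0.638 and 0.207 CPM in DMSO and 3.56 and 3.26 CPM in rotenone. The DMSO libraries of day 20 differed from each other by about as much as the whole range of day 10, on 38 and 6 reads. In CPM the ratio of dpy-4 to dpy-5 was 0.95 to 1.10 in DMSO at day 1 and 0.97 to 1.18 in rotenone at day 20.

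dpy-13 was at 30.5, 29.5 and 29.2 CPM in DMSO and 40.3, 48.2 and 47.8 CPM in rotenone at day 1, and at 18.7, 20.7 and 14.1 CPM and 33.5, 18.5 and 14.5 CPM at day 5. By day 10 it was at 0.527, 0.431 and 0.208 CPM in DMSO and 0.818, 0.258 and 0.556 CPM in rotenone. The 2 DMSO libraries of day 20 had 0.520 and 0.379 CPM and the 2 rotenone libraries 3.89 and 2.76 CPM. The libraries took nearly the order they had for dpy-4, with a Spearman correlation of 0.974. Over the 22 libraries the Pearson correlation of log2 CPM was 0.998 between dpy-4 and dpy-5, 0.998 between dpy-4 and dpy-13 and 0.994 between dpy-5 and dpy-13. These values describe points that share libraries, depth and age, and no test was made of them.

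**Figure D1:**
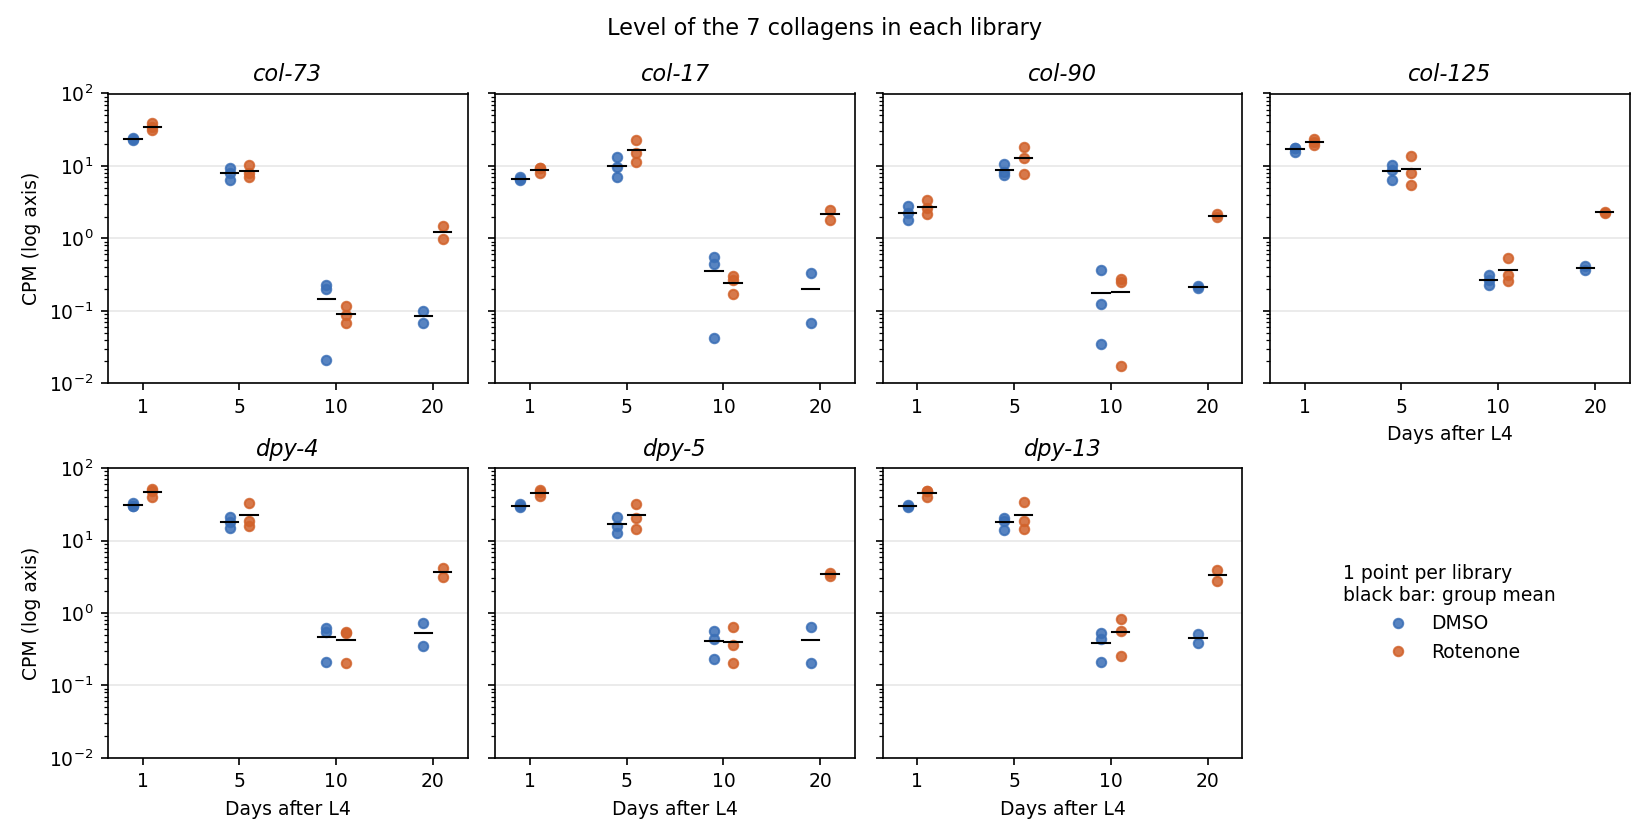
CPM of each of the 7 collagens on a log axis against days after L4, with 1 point per library, DMSO in blue, rotenone in orange and a black bar at each group mean. Each gene dropped from day 5 to day 10 in both treatments, and at day 20 both rotenone libraries lay above both DMSO libraries.

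The numbered collagens fell into 2 patterns in early adulthood. col-73 and col-125 were highest at day 1, like the dumpy genes, and col-17 and col-90 were highest at day 5. col-73 was at 24.0, 22.7 and 23.8 CPM in DMSO and 31.8, 34.4 and 38.5 CPM in rotenone at day 1, and at 7.95, 9.49 and 6.41 CPM and 10.5, 8.01 and 7.14 CPM at day 5. Per kilobase it then had the lowest mean of the 7 in all 4 groups of days 10 and 20, with 0.198, 0.224 and 0.0208 CPM in DMSO and 0.0889, 0.0687 and 0.117 CPM in rotenone at day 10, on 1 to 13 reads. Day 20 gave 0.101 and 0.0689 CPM in DMSO, from 6 and 2 reads, and 0.972 and 1.50 CPM in rotenone, from 69 and 54 reads. The counting error of the DMSO values is therefore large, although the treatments did not overlap.

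col-125 was at 17.7, 17.5 and 15.5 CPM in DMSO and 19.2, 23.3 and 21.3 CPM in rotenone at day 1. At day 5 it had 8.70, 10.3 and 6.48 CPM in DMSO and 13.5, 7.93 and 5.51 CPM in rotenone, and these groups overlapped fully. At day 10 it had 0.264, 0.310 and 0.228 CPM in DMSO and 0.534, 0.258 and 0.307 CPM in rotenone. The day 20 libraries agreed closely within each treatment, at 0.369 and 0.414 CPM in DMSO and 2.27 and 2.28 CPM in rotenone.

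col-17 rose between days 1 and 5, from 7.90, 9.24 and 9.37 CPM to 22.8, 15.3 and 11.4 CPM in the rotenone libraries, which passed the test. DMSO libraries had 6.38, 6.58 and 6.98 CPM and 9.73, 13.1 and 7.05 CPM, which did not pass (edgeR adjusted p = 0.09). The difference between the treatments in this change did not pass either (log2 0.32 ± 0.41, SE). At day 10 the DMSO libraries had 0.560, 0.448 and 0.0415 CPM and the rotenone libraries 0.302, 0.172 and 0.263 CPM. DMSO replicate 3 was far below replicates 1 and 2, on 2 reads. At day 20 DMSO gave 0.336 and 0.0689 CPM, from 20 and 2 reads, and rotenone 2.49 and 1.81 CPM.

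col-90 started lowest of the 7, also per kilobase, at 1.79, 2.27 and 2.76 CPM in DMSO and 2.61, 3.43 and 2.17 CPM in rotenone at day 1, and it was the one member whose day 1 groups overlapped. At day 5 it had 8.36, 10.7 and 7.52 CPM in DMSO and 18.2, 12.8 and 7.64 CPM in rotenone. At day 10 it had 0.363, 0.0345 and 0.125 CPM and 0.249, 0.0172 and 0.278 CPM, with 2 reads in the lowest DMSO library and 1 in the lowest rotenone library. Day 20 gave 0.218 and 0.207 CPM in DMSO and 1.94 and 2.17 CPM in rotenone. The rotenone libraries of day 20 lay within the range of its DMSO libraries of day 1 and just below its lowest rotenone library of day 1, while each of the other 6 genes stayed below all of its libraries of day 1.

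Per kilobase of exon, the scale on which genes can be compared, dpy-5 led at day 1 in rotenone with 53.6 ± 5.47 CPM per kb (SD, n = 3), followed by dpy-4 with 46.6 ± 6.29 and dpy-13 with 45.9 ± 4.46. These 3 overlapped. col-73 followed with 35.6 ± 3.45, col-125 with 22.6 ± 2.19, col-17 with 8.08 ± 0.745 and col-90 with 2.42 ± 0.563 CPM per kb, and none of these overlapped with its neighbour. The order by mean was the same in DMSO at day 1. In rotenone at day 20 the order was dpy-5 with 3.99 ± 0.252 CPM per kb (SD, n = 2), dpy-4 with 3.68 ± 0.730, dpy-13 with 3.36 ± 0.808, col-125 with 2.42 ± 0.0123, col-17 with 1.97 ± 0.441, col-90 with 1.82 ± 0.143 and col-73 with 1.26 ± 0.384. There the 3 dumpy genes overlapped with one another, and so did col-17 and col-90, while col-125 and col-73 did not overlap with their neighbours.

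Summed over the 7 genes, the level in DMSO was 140 ± 2.33 CPM at day 1, 87.6 ± 18.7 at day 5, 2.20 ± 1.04 at day 10 (SD, n = 3 each) and 2.30 ± 0.859 at day 20 (SD, n = 2). In rotenone it was 206 ± 20.5, 114 ± 44.9 and 2.26 ± 0.935 CPM (SD, n = 3 each) and 18.2 ± 1.68 CPM (SD, n = 2). Rotenone animals at day 20 thus held 8.82% of the summed level of rotenone animals at day 1 and 15.9% of that at day 5, and DMSO animals 1.64% and 2.62% of the matching DMSO levels. Deviations within a group were shared by the genes in some groups and not in others. DMSO day 1 replicate 1 was the highest of its group for 4 of 7 genes and the lowest for 3. The same counts held for rotenone day 20 replicate 1. DMSO day 5 replicate 2 was the highest and replicate 3 the lowest of its group for 7 of 7 genes, and rotenone day 5 replicate 1 was the highest and replicate 3 the lowest for 7 of 7. At day 10 rotenone replicate 2 was the lowest for 7 of 7 and DMSO replicate 3 for 6 of 7.

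Whether rotenone moved these genes before day 20 was asked at days 1, 5 and 10, which were not used to choose them. At day 1 each of the 7 had a higher mean in rotenone, and for 6 of 7, all but col-90, the rotenone libraries lay above the DMSO libraries without overlap, against 20.5% of all tested genes. None of the 7 passed the edgeR test at day 1, where 0.648% of all genes passed in either direction, while 4 had an unadjusted p under 0.05, as had 19.4% of all genes, and 0 passed in DESeq2. The log2 differences were 0.61 ± 0.25 for dpy-13, 0.61 ± 0.26 for dpy-5, 0.59 ± 0.25 for dpy-4 and 0.57 ± 0.18 for col-73 (SE, 3 libraries per group, edgeR adjusted p of 0.22, 0.23, 0.23 and 0.16). For col-17, col-125 and col-90 they were 0.41 ± 0.29, 0.33 ± 0.22 and 0.30 ± 0.35. The median of the 7 was 0.57, beside 0.04 over all tested genes.

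The calls at day 1 changed with the libraries and genes in the fit, and so did the share over all genes. With the 6 day 1 libraries alone 6 of 7 passed, all but col-90, as did 33.3% of all genes (5010 of 15049). With no filter on low counts 4 of 7 passed, namely col-73 and the 3 dumpy genes, as did 6.32% of all genes (1822 of 28814). Without DMSO day 10 replicate 1, which takes no part in the comparison, col-73 passed (edgeR adjusted p = 0.019), as did 18.5% of all genes (3116 of 16822). Differences at day 1 also moved with gene length. The 2672 other tested genes whose exonic length lay in the range of the 7, from 855 to 1131 bases, had a median log2 difference of 0.14. With a smooth trend on length removed from each library the log2 differences of the 7 were 0.19 to 0.48, and the part of length in the result was not tested further.

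At day 5 the edgeR test passed 0 of 7, against 0.88% of all genes in either direction, with 1 of 7 at an unadjusted p under 0.05, as had 9.24% of all genes, and 0 in DESeq2. The treatments overlapped for 7 of 7. The largest differences were in the pair that peaked at day 5, with 0.73 ± 0.29 for col-17 and 0.56 ± 0.30 for col-90 on the log2 scale (SE, 3 libraries per group, edgeR adjusted p of 0.38 and 0.63). Both passed with no filter on low counts (edgeR adjusted p of 0.00012 and 0.019), as did 1.18% of all genes. The other 5 differed by 0.10 to 0.43. Without rotenone replicate 1, the highest library for each of the 7, the differences of col-73, col-125, dpy-4 and dpy-13 changed sign, to between -0.050 and -0.35, and without DMSO replicate 3 those of col-73 and col-125 did, to -0.020 and -0.054. Without any other day 5 library the signs stayed. Without DMSO day 10 replicate 1, which takes no part at day 5, 0 of 7 passed, against 313 of all genes in place of 148.

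At day 10 the edgeR test passed 0 of 7, against 1.36% of all genes in either direction, with 0 of 7 at an unadjusted p under 0.05, against 11% of all genes, and 0 in DESeq2. Log2 differences ran from -0.64 ± 0.56 for col-73 to 0.53 ± 0.46 for dpy-13 (SE, 3 libraries per group), and 4 of 7 were above 0. These standard errors of 0.45 to 0.78 are wider than at the earlier days, when they were 0.18 to 0.35. The levels behind them rest on 1 to 46 reads per gene and library. Without DMSO replicate 1 the differences ran from -0.46 to 1.29, and 0 of 7 passed, while the share over all genes went from 1.36% to 14.3% (2401 genes in place of 229). Leaving out any other 1 library gave 47 to 268 genes and 0 of 7. The count was 47 without rotenone replicate 1, 56 without rotenone replicate 3, 102 without DMSO replicate 3, 136 without DMSO replicate 2 and 146 without rotenone day 1 replicate 1.

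The change of the rotenone difference between ages was tested as an interaction. Between days 1 and 5 the edgeR test passed 0 of 7, against 0.487% of all genes, and between days 5 and 10 it passed 0 of 7, against 0.511% of all genes. In both, 0 of 7 had an unadjusted p under 0.05, against 10.6% and 6.19% of all genes, and 0 passed in DESeq2. The changes ran from -0.46 ± 0.27 for col-73 to 0.32 ± 0.41 for col-17 in the first step and from -1.16 ± 0.66 for col-17 to 0.32 ± 0.50 for col-125 in the second (log2, SE). Without DMSO day 10 replicate 1 the second step ran from -0.79 to 0.73, and 0 of 7 passed, against 259 of 16822 genes in place of 86. Calls over all genes in the first step, in which that library takes no part, went from 82 to 817.

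**Figure D2:**
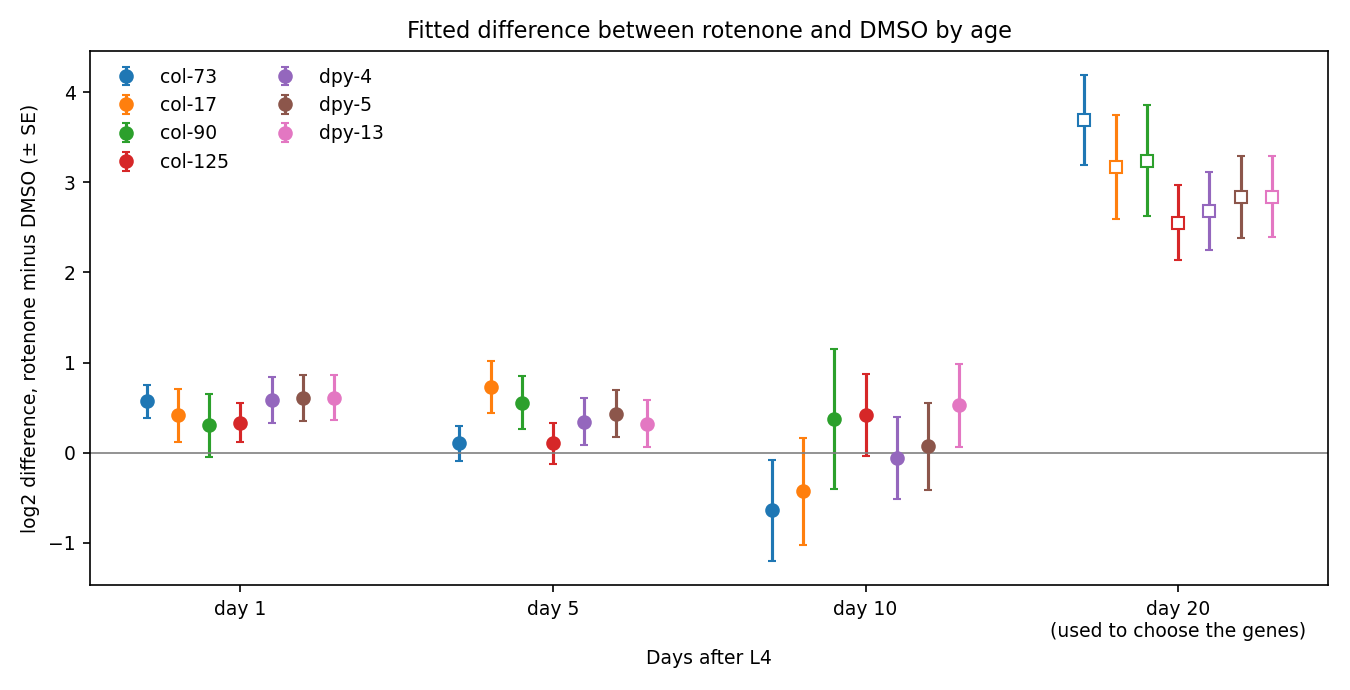
Fitted log2 difference between rotenone and DMSO for each of the 7 collagens at each age, with bars of 1 SE, 3 libraries per group at days 1, 5 and 10 and 2 at day 20. Open squares mark day 20, whose values chose the genes, and lie between 2.55 and 3.69, while the other ages lie between -0.64 and 0.73.

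Between days 1 and 5 the 7 genes split. In DMSO animals 5 fell and 1 rose, where 31.3% of all tested genes fell and 24.6% rose. col-73 fell most, with a log2 change of -1.56 ± 0.19 (SE, 3 libraries per group, edgeR adjusted p = 1.2e-06), then col-125 with -0.98 ± 0.22 and the dumpy genes with -0.85 ± 0.26 for dpy-5, -0.80 ± 0.26 for dpy-4 and -0.73 ± 0.26 for dpy-13. col-90 rose by 1.98 ± 0.33 (3.93-fold, edgeR adjusted p = 4.2e-05). col-17 had 0.59 ± 0.29 and did not pass (edgeR adjusted p = 0.09). Its call changed easily, since it passed without DMSO day 5 replicate 3, without DMSO day 10 replicate 1 or 3, with no filter, with the length trend removed and with the compared groups alone. Without DMSO day 5 replicate 3 the falls of dpy-4, dpy-5 and dpy-13 no longer passed (edgeR adjusted p of 0.060, 0.057 and 0.097), nor did that of dpy-13 without DMSO day 1 replicate 1 (0.051).

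In rotenone animals 5 fell and 2 rose between days 1 and 5, where 35.4% of all tested genes fell and 27.3% rose. col-73 changed by -2.02 ± 0.19, col-125 by -1.21 ± 0.22, dpy-4 by -1.04 ± 0.25, dpy-5 by -1.02 ± 0.26 and dpy-13 by -1.02 ± 0.26 on the log2 scale (SE, 3 libraries per group). col-90 rose 4.69-fold (log2 2.23 ± 0.32, edgeR adjusted p = 8.4e-06) and col-17 1.88-fold (log2 0.91 ± 0.29, edgeR adjusted p = 0.0099). The call of col-17 was lost without rotenone day 5 replicate 1 (edgeR adjusted p = 0.099).

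These opposite moves changed the make-up of the group. col-90 was 1.26% to 1.95% of the summed CPM of the 7 in DMSO at day 1 and 9.57% to 10.9% at day 5. In CPM relative to dpy-13 in the same library, col-17 was at 0.19 to 0.24 in the 6 libraries of day 1, at 0.50 to 0.63 in DMSO and 0.68 to 0.83 in rotenone at day 5. col-73 went the other way, from 0.71 to 0.82 in the libraries of day 1 to 0.31 to 0.49 in those of day 5. In rotenone at day 20 these ratios were 0.64 to 0.66 for col-17, 0.50 to 0.79 for col-90 and 0.25 to 0.55 for col-73. For col-17 and col-90 they lay outside the range of day 1 and within or beside that of day 5. Those of col-73 also lay outside the range of day 1, with 1 library on either side of the range of day 5. In DMSO at day 20 they were 0.18 to 0.65 for col-17, 0.42 to 0.55 for col-90 and 0.18 to 0.19 for col-73, each from 2 libraries with 2 to 31 reads per gene. At day 10, on 1 to 46 reads, they spread widely, such as 0.20 to 1.06 for col-17 in DMSO.

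**Figure D3:**
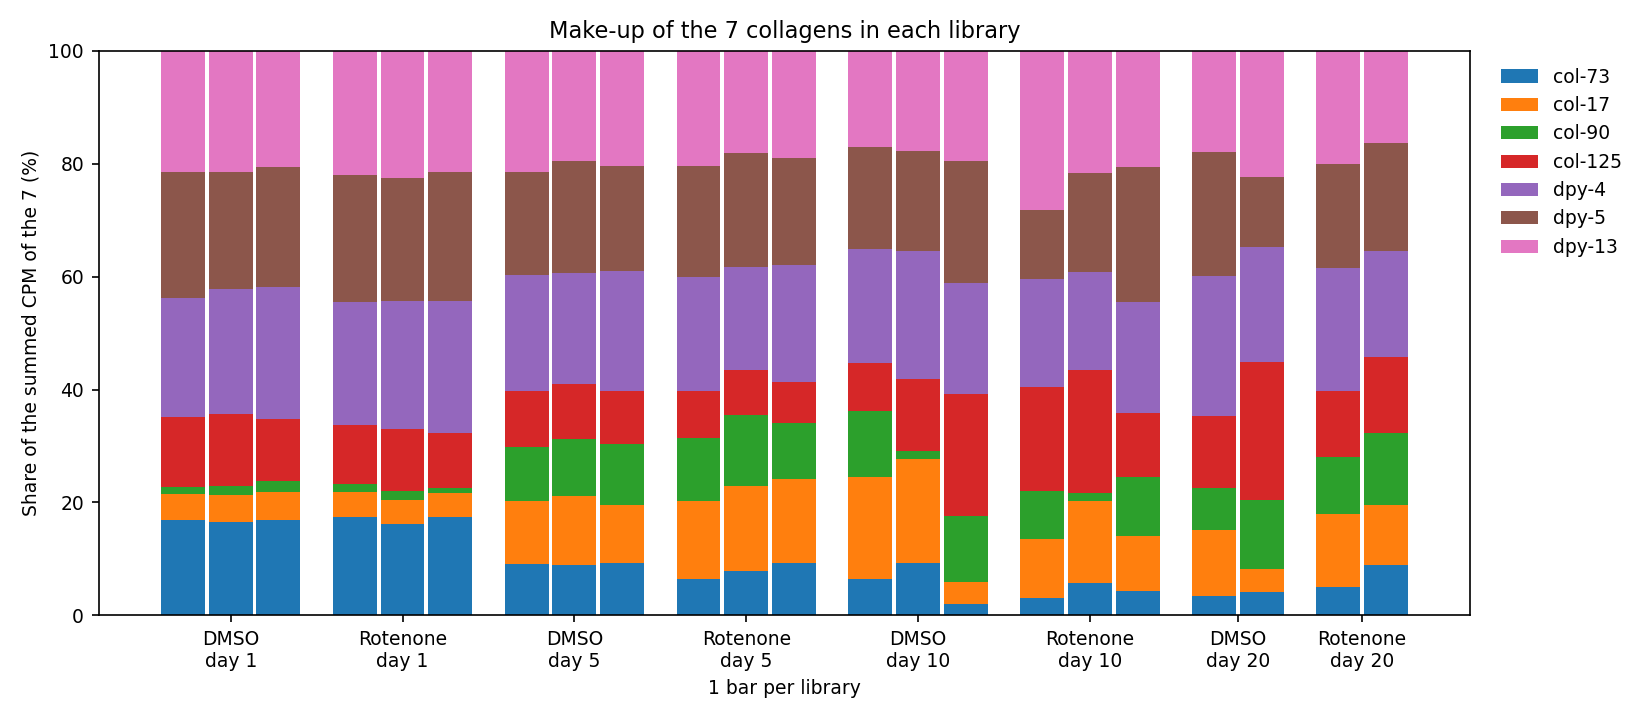
Share of each of the 7 collagens in their summed CPM, in percent, with 1 bar per library ordered by age and treatment. col-17 and col-90 (orange and green) hold little of the bars of day 1 and more of those of day 5 and of rotenone day 20. In the bars of day 10 and DMSO day 20, on few reads, their shares vary. There col-17 is at 3.92% to 18.4% in DMSO day 10 and col-90 at 7.51% to 12.2% in DMSO day 20.

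Between days 5 and 10 all 7 fell in both treatments. In DMSO 7 of 7 passed lower, where 12.1% of all tested genes fell and 13.7% rose. The log2 changes ran from -4.90 ± 0.41 for col-17 to -5.94 ± 0.49 for col-90 (SE, 3 libraries per group), which is 30.0-fold to 61.4-fold lower. In rotenone 7 of 7 passed lower, where 11.6% of all tested genes fell and 11.2% rose, with log2 changes from -4.65 ± 0.30 for col-125 to -6.49 ± 0.31 for col-73. The largest edgeR adjusted p among these 14 results was 3e-08. All 7 passed in each treatment without any 1 of the 22 libraries, and without DMSO day 10 replicate 1 the log2 changes in DMSO were -4.97 to -6.84.

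This fall was among the deeper ones of the family, which is given as a description. Ranked from the most negative log2 change among 155 tested cuticle collagens, the 7 took places 3 to 16 in DMSO and 1 to 17 in rotenone between days 5 and 10, with median places of 7 and 8. Between days 1 and 5 they took places 78 to 149 in DMSO and 75 to 152 in rotenone, so their early fall was not among the deepest. By CPM per kb they ranked 36 to 102 of 155 in DMSO at day 1, where col-119 led the others with 3614 ± 216 CPM per kb (SD, n = 3), and 24 to 38 in DMSO at day 5. At day 20 they ranked 62 to 133 in DMSO and 23 to 61 in rotenone, and col-122 led with 82.8 ± 6.5 CPM per kb in DMSO and 99.1 ± 0.7 in rotenone (SD, n = 2).

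**Figure D4:**
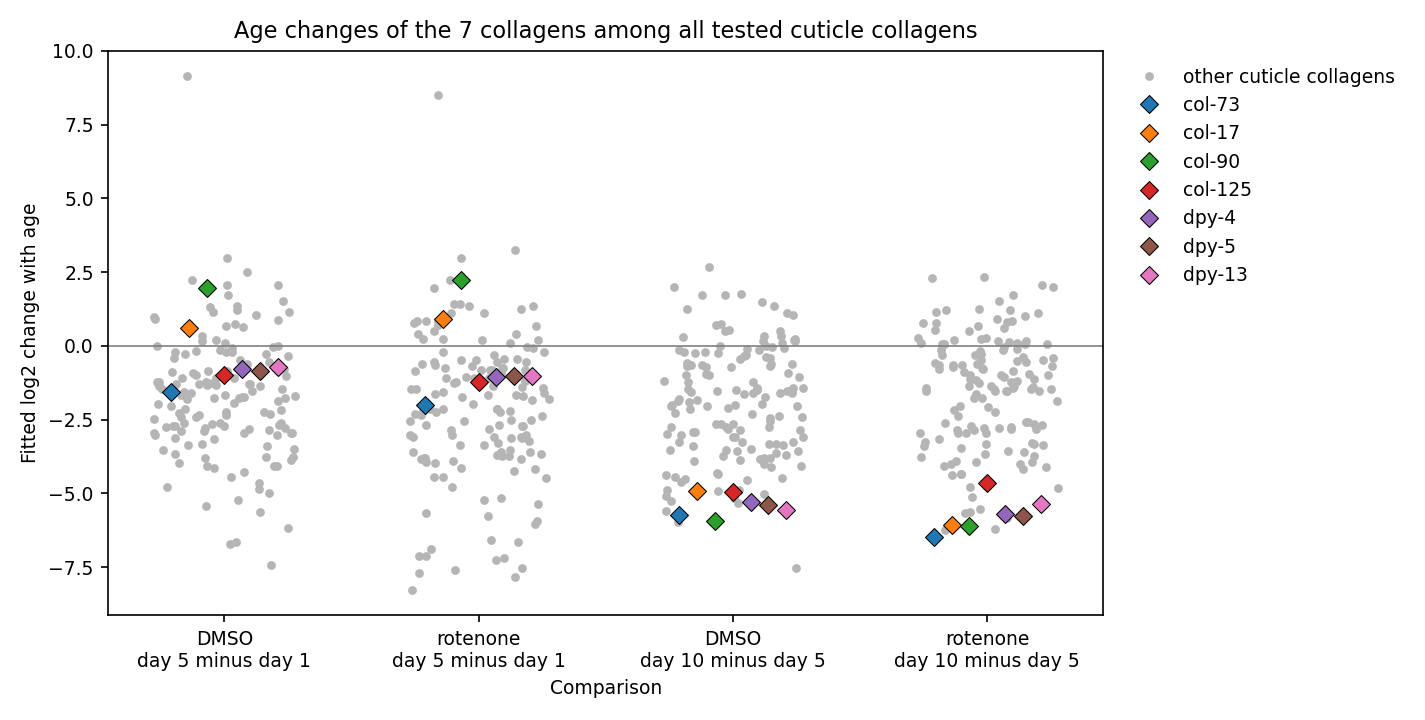
Fitted log2 change with age of the 7 collagens (diamonds) and of the 148 other tested cuticle collagens (grey points, spread sideways at random) in 4 comparisons of 3 libraries against 3. The diamonds spread from -2.02 to 2.23 between days 1 and 5 and lie from -4.65 to -6.49 between days 5 and 10.

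At day 20 the fitted log2 differences between rotenone and DMSO were 3.69 ± 0.50 for col-73, 3.24 ± 0.62 for col-90, 3.17 ± 0.57 for col-17, 2.84 ± 0.45 for dpy-13, 2.83 ± 0.46 for dpy-5, 2.68 ± 0.43 for dpy-4 and 2.55 ± 0.42 for col-125 (SE, 2 libraries per group). In fold these are 5.87 to 12.9. The values chose the genes and are not tested. In edgeR 0.0594% of all tested genes, which is 10 genes, passed higher at day 20. The choice of the 7 fixed their part in this count, and nothing is read from it. One library weighs on several of the sizes. Without DMSO day 20 replicate 1 the difference was 4.92 for col-17, 4.02 for dpy-5, 4.05 for col-73, 3.41 for dpy-4 and 2.44 for col-125. The DMSO side then rests on replicate 2 alone, with 2, 6, 2, 10 and 12 reads of these genes in that order.

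Of the 10, 4 genes lie outside the 7. Named after their values were seen, they were fat-5 and fat-6, which encode fatty acid desaturases, the cytochrome P450 gene cyp-35C1 and Y47D7A.13. Each had a smaller log2 difference than any of the 7. Since the 7 were chosen for being higher at day 20 and had few reads in DMSO, this order is not read further. fat-6 was at 84.6 and 91.5 CPM in DMSO and 148 and 144 CPM in rotenone, and fat-5 at 51.7 and 57.6 and 104 and 89.9 CPM. A collagen, col-81, was the single gene that passed lower, 0.00594% of those tested, with 7.80 and 2.41 CPM in DMSO and 0.831 and 1.62 CPM in rotenone.

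The summed level of the rest of the family overlapped between treatments at day 20. Summed over the 148 other tested cuticle collagens, the level was 668 and 813 CPM in the DMSO libraries and 727 and 757 CPM in the rotenone libraries. Abundant collagens weigh most in this sum, such as col-122 with means of 79.2 CPM in DMSO and 94.9 CPM in rotenone. Its spread exceeds the whole summed level of the 7 in rotenone, 18.2 CPM. The sum therefore cannot show whether other collagens of low level differed in the same way. The 7 held 0.252% and 0.356% of all cuticle collagen CPM in DMSO and 2.19% and 2.59% in rotenone. From day 1 to day 20 the summed level of the other 148 dropped to 2.42% in DMSO and 2.23% in rotenone. Among them 9 had a fitted log2 difference at least as large as the smallest of the 7, 2.55. Of these, 6 were at or below 0.4 CPM in every day 20 library, and 2 of those, col-146 and col-168, had 0 reads in both DMSO libraries, so that no fold is given. The remaining 3, named after their values were seen, were col-77 with 0.168 and 0.379 CPM in DMSO and 0.676 and 2.70 CPM in rotenone, col-144 with 0.151 and 0.103 against 0.859 and 0.864 CPM, and col-180 with 0.0839 and 0.0345 against 0.409 and 0.501 CPM. Just under 2.55 was rol-6 with 2.44.

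**Figure D5:**
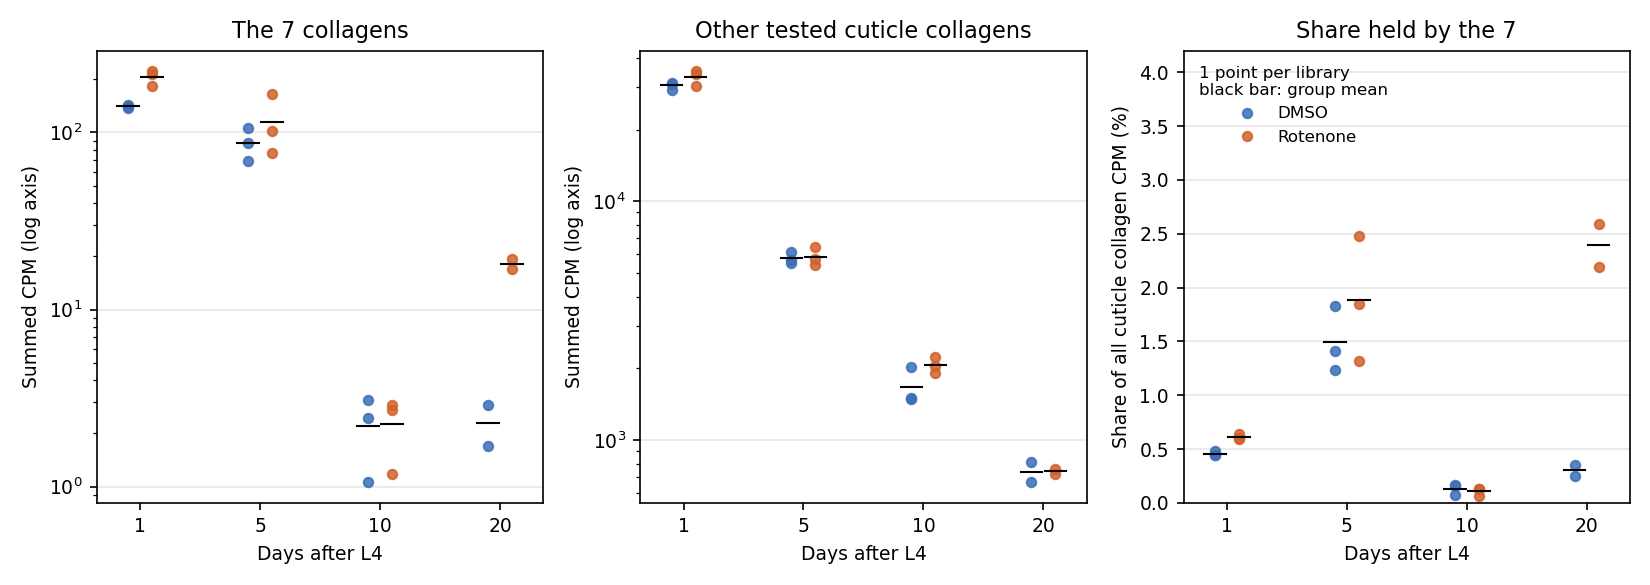
Summed CPM of the 7 collagens and of the 148 other tested cuticle collagens on log axes, and the share of the 7 in all cuticle collagen CPM in percent, against days after L4, with 1 point per library and a black bar at each group mean. At day 20 the treatments overlap for the sum of the other 148, and the share of the 7 is 2.19% and 2.59% in rotenone against 0.252% and 0.356% in DMSO.

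Other genes of the cuticle were counted in lists of known genes. Of the other numbered collagens, 131 of 155 were tested. At day 20 none of them passed higher and 1, col-81, passed lower in edgeR. At an unadjusted p under 0.05, 25 were higher and 10 lower, with 5 higher and 4 lower in DESeq2, and their median log2 difference was 0.15. The 7 are collagens chosen for being higher at day 20 and are not in these lists. That choice lowered the day 20 counts of higher collagens here and in the body-shape and furrow lists. Those counts therefore cannot show whether the difference is confined to the 7. For day 20 the share over all genes is given only for the edgeR adjusted p. Counts at an unadjusted p and in DESeq2, here and in the lists below, are therefore not read as a shift of a list. At day 1 col-120 alone passed higher, from 12.8 ± 0.523 to 21.8 ± 3.45 CPM (SD, n = 3, edgeR adjusted p = 0.047). At day 5 none passed higher and 11 passed lower, against 0.773% of all tested genes lower, with a median of -0.13. The leading ones were col-138 with -3.44 ± 0.30, col-49 with -4.06 ± 0.37 and col-175 with -4.03 ± 0.44 on the log2 scale (SE), while 0 of the 7 passed lower. At day 10, 3 passed higher and 1 lower, led by col-183, which went from 4.85 ± 0.687 to 11.1 ± 1.84 CPM (SD, n = 3).

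Between days 5 and 10 the other numbered collagens fell widely, 87 of 131 in DMSO and 75 of 131 in rotenone, with 5 and 7 that rose. Their median log2 changes of -1.91 and -1.25 were smaller than those of the 7, which were -5.41 and -5.77. Between days 1 and 5, 90 fell and 15 rose in DMSO and 91 fell and 13 rose in rotenone, with medians of -1.60 and -2.15 beside -0.80 and -1.02 for the 7. The adult collagen col-19 went from 1636 ± 33.2 to 75.4 ± 2.09 CPM in DMSO (SD, n = 3). The rotenone effect changed between days 1 and 5 in 10 of the 131, all downward, and between days 5 and 10 in 7, all upward.

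The 11 other body-shape collagens, whose mutants roll, blister or change in length, had the largest median fall between days 5 and 10 among the lists counted here. In DMSO 8 of 11 fell and 2 rose between days 5 and 10, with a median log2 change of -2.64. rol-6, whose mutants roll along their long axis, went from 5.73 ± 1.88 to 0.120 ± 0.0686 CPM (SD, n = 3), rol-8 from 6.91 ± 1.37 to 0.298 ± 0.153 CPM, and sqt-2 from 3.31 ± 0.795 to 0.163 ± 0.0792 CPM, and each fell in rotenone too. In rotenone 7 of 11 fell and 2 rose. At day 20 the edgeR test passed 0 of 11 in either direction, with 4 higher at an unadjusted p under 0.05 and 3 higher in DESeq2, and their median log2 difference was 0.91 beside 0.02 over all genes. The counts at an unadjusted p and in DESeq2 have no share over all genes beside them. At day 5 bli-6 and bli-2, collagens whose mutants have blistered cuticles, were lower with rotenone, with differences of -3.82 ± 0.52 and -1.78 ± 0.40 on the log2 scale (SE).

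The 6 furrow collagens, dpy-2, dpy-3, dpy-7, dpy-8, dpy-9 and dpy-10, also give dumpy mutants but differed from dpy-4, dpy-5 and dpy-13 in their values. In DMSO 4 of 6 fell between days 1 and 5, with a median log2 change of -1.95, and 2 of 6 between days 5 and 10, with a median of -0.14. dpy-7 went from 16.0 ± 0.515 to 3.60 ± 0.484 CPM between days 1 and 5 (SD, n = 3), and dpy-8 from 3.79 ± 0.992 to 1.67 ± 0.390 CPM between days 5 and 10. At day 20 the edgeR test passed 0 of 6, with 0 at an unadjusted p under 0.05 and 0 in DESeq2, and the median log2 difference was 0.10.

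Enzymes, regulators and structural proteins other than cuticle collagens were counted at day 20. For 13 collagen processing enzymes, such as the prolyl hydroxylase dpy-18 and the procollagen protease dpy-31, edgeR passed 0, with 1 higher at an unadjusted p under 0.05 and 0 in DESeq2, and the median log2 difference was 0.05. Of 14 moulting genes 0 passed, with 1 lower at an unadjusted p under 0.05 and 0 in DESeq2 (median -0.03). Of 8 regulators of the moulting cycle, among them the nuclear receptors nhr-23 and nhr-25, 0 passed, with 0 at an unadjusted p under 0.05 and 0 in DESeq2 (median 0.05). Of 34 tested cuticulins, which are cuticle proteins of another kind, 0 passed in edgeR, with 1 higher and 3 lower at an unadjusted p under 0.05 and 1 higher in DESeq2 (median -0.10). Of 3 basement membrane collagens, which lie under the epidermis and not in the cuticle, 0 passed, with 0 at an unadjusted p under 0.05 and 0 in DESeq2 (median 0.28). In DMSO between days 5 and 10 cuticulins were mixed, with 11 that rose and 4 that fell, and so were the moulting genes, with 5 and 2, and the processing enzymes, with 2 and 2.

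Outside the 7, the genes with the most similar profile were found by the Pearson correlation of log2 CPM over the 22 libraries, day 20 included, as a description. The 7 themselves were left out of this search, so "nearest" here means nearest among the other genes. Some of the 7 were closer to each other, such as col-73 to dpy-4 with 0.991. For the mean profile they were Y47D7A.13 with 0.989, rol-8 with 0.989 and K02E11.10 with 0.982. By Spearman correlation they ranked 4, 83 and 2, so the place of rol-8 rests on the measure. Y47D7A.13 was also nearest to col-125, dpy-4, dpy-5 and dpy-13. It was at 11.4 ± 2.76 CPM in DMSO at day 5, 0.776 ± 0.0440 at day 10 (SD, n = 3) and 0.993 ± 0.138 at day 20 (SD, n = 2), against 3.68 ± 0.119 in rotenone at day 20. For col-73 the nearest was the collagen col-180 with 0.981, which is among the 3 named above.

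For col-17, of the pair that peaked at day 5, the nearest were the collagens rol-6 with 0.983, rol-8 with 0.978 and sqt-1 with 0.977. For col-90 they were col-54 with 0.944, col-41 with 0.936 and rol-6 with 0.933. rol-6 was at 3.66 ± 0.0936 CPM in DMSO at day 1, 5.73 ± 1.88 at day 5 and 0.120 ± 0.0686 at day 10 (SD, n = 3), and at day 20 at 0.245 ± 0.152 CPM in DMSO and 1.45 ± 0.665 in rotenone (SD, n = 2). sqt-1 was at 0.497 ± 0.460 and 2.19 ± 0.334 CPM at day 20, and col-41 at 0.746 ± 0.275 and 3.51 ± 1.18 CPM. Among the 7 themselves the lowest correlation was 0.817, between col-73 and col-90.

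On genome build WBcel235 the 7 genes lie on 4 chromosomes. col-17 (II, 4866436 to 4867576, minus strand) and col-73 (II, 4872098 to 4873129, minus strand) flank the collagen col-20 (II, 4869670 to 4870791, minus strand). col-20 did not share their levels, with 2276 to 2406 CPM in DMSO at day 1, 11.6 to 13.3 CPM in DMSO at day 20 and 6.62 to 12.6 CPM in rotenone at day 20. dpy-13 (4235614 to 4236710, plus strand), col-125 (11225506 to 11226516, plus strand) and dpy-4 (14985543 to 14986784, minus strand) lie apart on chromosome IV, dpy-5 on chromosome I (5432197 to 5433051, minus strand) and col-90 on chromosome III (7948838 to 7950068, plus strand). The library kit does not mark strand, and 98 exonic bases of col-90 overlap let-754 and 15 of col-125 overlap best-7 on the other strand, so reads there cannot be assigned to one gene. let-754 was at 72.5 to 77.4 CPM in DMSO and 78.5 to 79.6 CPM in rotenone at day 20, and best-7 at 1.59 to 2.48 and 2.21 to 2.45 CPM. dpy-4 lies inside the span of atln-2, with no shared exonic base. How reads that match several collagens were counted is not given in the sources used here.

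Markers of other cells were read beside the day 20 values, since whole animals hold them all. Embryo markers, 7 of 9 tested, summed to 35.8 to 42.9 CPM in DMSO and 32.2 to 35.5 CPM in rotenone, with none of the 9 at 0 in either group. Sperm markers, 25 of 47 tested, summed to 11.1 to 12.3 and 11.5 to 12.3 CPM, with 20 and 14 of the 47 at 0. Muscle markers summed to 248 to 349 CPM in DMSO and 334 to 359 CPM in rotenone, and neuron markers to 431 to 489 and 427 to 488 CPM, so these 4 lists overlapped or were lower with rotenone. Germline markers were higher with rotenone without overlap, at 2327 to 2379 against 2561 to 2700 CPM, and so were intestine markers, at 120 to 145 against 158 to 160 CPM. The share of all genes without overlap at day 20 is not given here, so these separations are not read further. The median log2 differences were 0.17 for germline and 0.26 for intestine markers. None of these markers passed the edgeR test at day 20, 0 had an unadjusted p under 0.05 and 0 passed in DESeq2, and their part in the result was not tested.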

How the data were processed

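The authors deposited 1 table of whole-number read counts per gene, without normalization, and 1 table of RPKM, which was not used. TopHat 1.4.1, HTSeq and build WBcel235 appear in the submitters' processing notes, without their roles, and the labels' protocols name the TruSeq RNA kit. Counts were tested with edgeR 4.0.16 (limma 3.58.1, R 4.3.3): filterByExpr, TMM factors and 1 fit of 8 groups over 22 libraries, with Benjamini-Hochberg adjustment over 16822 genes and standard errors derived from F. Log2 CPM used a prior count of 2. Exonic lengths and coordinates came from Ensembl, and current names from Ensembl (44933 of 45461 genes matched) and RefSeq (44080). The procedure was also run on simulated data, in which each gene had its mean level over all libraries in every group, apart from the changes put in. The low counts of the 7 at day 10 and in DMSO at day 20 were therefore not simulated.

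The 7 genes, the gene lists and the tests were chosen with earlier results of these data known. The genes named besides the 7 are the 3 most like each of them and like their mean profile, up to 3 per list with the smallest adjusted p in each comparison counted, and the most abundant other collagen at days 1 and 20. Genes at day 20 and neighbours on the chromosome were named after their values or places were seen.

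Alternatives were RLE factors, no filter (28814 genes), the replicate number as a block, a length trend removed (lowess span 0.3), only the groups compared, DESeq2 1.42.0 and each library left out. A block within day 10 alone was added after the data were seen. Deviations of same-numbered DMSO and rotenone libraries correlated at 0.43, 0.22 and 0.16 at day 10, above the limit of 0.1 for taking the numbers as pairs at that day, although unlike-numbered libraries reached 0.24 and 0.17 there. Same-numbered libraries correlated at 0.03 to 0.16 at days 1 and 5.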

Additional observations from a re-analysis of the deposited data

How the results depend on the processing

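In the 4 age comparisons 6 or 7 of 7 were called under every alternative fit, and leaving out 1 library gave 4 to 7 of 7 in DMSO and 6 to 7 of 7 in rotenone between days 1 and 5. Of all genes, the alternatives called 9352 to 10536 in DMSO and 10459 to 11119 in rotenone between days 1 and 5. Between days 5 and 10 they called 1909 to 5139 and 3770 to 4743. Leaving out 1 library, 8287 to 10764 and 9486 to 11510 of 16822 genes were called between days 1 and 5. The counts of the 7 between days 1 and 5 are therefore not read as particular to them. With rotenone at day 1, 4 of 7 passed with no filter and 6 of 7 with only the groups compared, and leaving out 1 library gave 0 to 1. At day 5, 2 of 7 passed with no filter. The cause was not tested. With the replicate block 0 of 7 passed at each of days 1, 5 and 10, and the block changed no call of the 7 (log2 difference at day 1 of 0.57 for col-73 and 0.63 for dpy-13). In the block fit of day 10 alone 0 genes passed in place of 229, as in the fit of the day 10 groups without it, while DESeq2 passed 405. Values near 0 changed sign in 2 results: dpy-4 at day 10 with no filter (0.0012) and the change of the rotenone effect of dpy-5 between days 1 and 5 with the length trend removed (0.0011). Leaving out 1 library changed further signs, and none of these passed. At day 5 the ranges were -0.078 to 0.26 for col-73, -0.35 to 0.35 for col-125, -0.050 to 0.54 for dpy-4 and -0.12 to 0.55 for dpy-13. At day 10 they were -1.18 to 0.041 for col-73, -0.24 to 1.29 for col-90, -0.43 to 0.26 for dpy-4 and -0.48 to 0.38 for dpy-5. For the effect between days 1 and 5 they were -0.0011 to 0.57 for col-17, -0.10 to 0.51 for col-90, -0.68 to 0.015 for col-125 and -0.54 to 0.053 for dpy-5, and between days 5 and 10 they were -0.80 to 0.73 for col-90, -0.91 to 0.0038 for dpy-5 and -0.13 to 0.64 for dpy-13. Of 156 recomputed list counts whose own value was at least 5, 147 stayed within 1.5 times. In other numbered collagens the 11 lower at day 5 became 17 with no filter, the 10 lower for the effect between days 1 and 5 became 20 with no filter and 17 with only the groups compared, and the 7 higher between days 5 and 10 became 20, 12, 2 and 11 with no filter, the length trend removed, only the groups compared and DESeq2. With only the groups compared, cuticulins that rose in DMSO between days 5 and 10 went from 11 to 6 and moulting genes from 5 to 2. Over all genes, calls at day 1 went from 109 to 1822 with no filter, 5010 with only the groups compared and 327 in DESeq2, and at day 5 from 148 to 339 with no filter and 227 in DESeq2. Those of day 10 went from 229 to 362 with no filter and 345 with the length trend removed, and those of DMSO between days 5 and 10 from 4326 to 1909 with only the groups compared. For the effect they went from 82 to 575, 1681 and 166 between days 1 and 5 and from 86 to 226, 38 and 177 between days 5 and 10 (no filter, only the groups compared and DESeq2). Counts of 1 to 46 reads limit the values of days 10 and 20 outside rotenone day 20.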
